A study of Mus musculus with 15 samples.

Results

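The 10 genes described here encode the surfactant proteins of the lung and the proteins with which alveolar type 2 cells make, process and store surfactant. They are Sftpa1, Sftpb, Sftpc, Sftpd, Abca3, Lamp3, Napsa, Lpcat1, Slc34a2 and Etv5, and they were picked by symbol out of the 33340 genes in the count table. All 10 passed the filter on low counts. Whole lungs were taken from C57BL/6 mice at day 0 (4 libraries) and at day 7 (4), day 14 (4) and day 21 (3) after intratracheal bleomycin, a DNA-damaging drug that injures the alveolar epithelium and leads to fibrosis. The dose was 5 U/kg in 50 µL. The animals were adult males 10 to 12 weeks old, and the labels name no transgene or other treatment. The comparison of each later day with day 0 follows the surfactant genes through injury and fibrosis.

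Pulmonary surfactant is a film of phospholipid and protein that lowers surface tension and keeps alveoli open. Alveolar type 2 cells synthesise it, pack it into lamellar bodies, which are lysosome-related organelles, and secrete it by exocytosis. The same cells are the progenitors of the alveolar epithelium, and after injury they can leave this secretory state and give rise to flat alveolar type 1 cells. Loss of surfactant gene expression is widely used as a sign that type 2 cells are fewer or have left that state.

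Total counts ranged from 15652008 to 18020661 per library, and the levels below are CPM, counts divided by the TMM-adjusted library size. The labels do not say which libraries come from separate animals, so p-values measure the spread between these libraries. For day 0 replicate 4 the title says control and the treatment field says bleomycin, and it was analysed as day 0, with values without it given where one of the 10 genes lost a call against day 0. Genes outside the 10 were not refitted without it. The share of counts from 16 mitochondrial genes differed among libraries of the same day, from 2.28% to 4.22% at day 0 and from 2.1% to 4.14% at day 14. Day 14 replicate 1 stood apart from the other day 14 libraries, with the lowest level of all 10 surfactant genes and the lowest mitochondrial share of that day. At day 21, replicate 1 was the lowest and replicate 2 the highest library for all 10 genes.

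The number of surfactant genes called lower than at day 0 was 0 at day 7, 5 at day 14 and 10 at day 21, when the falls ran from 1.75-fold for Napsa to 5.60-fold for Sftpa1. At day 14 the number was 3 without day 0 replicate 3 or without day 14 replicate 1, and 2 with glmTreat, which tests against the fold threshold itself. A call required a fold change over 1.5 and, in edgeR's quasi-likelihood test, an adjusted p under 0.05 (Benjamini-Hochberg over 17457 genes), and adjusted p-values below come from that fit unless another is named. Among all genes tested, 7.36% were called lower and 8.78% higher at day 7, 11.2% lower and 12.0% higher at day 14, and 10.1% lower and 12.4% higher at day 21. The median log2 fold change of the 10 genes was -0.01 at day 7, -0.73 at day 14 and -1.56 at day 21, against 0.01, 0.02 and 0.02 for all genes tested. None of the 10 was called higher at any day.

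Their share of the polyadenylated RNA of the lung was lower in every library of each later day than at day 0. The 10 genes took 3.01% to 4.02% of all gene counts at day 0, 2.03% to 2.91% at day 7, 0.789% to 2.31% at day 14 and 0.520% to 1.09% at day 21. Sftpc alone made up 1.94% ± 0.404 (SD, n = 4) of all counts at day 0 and 0.371% ± 0.134 (SD, n = 3) at day 21. Among all genes of a library it ranked 2 in 3 libraries and 3 in the other at day 0, 1 in 3 libraries and 3 in the other at day 7, 2 in 3 libraries and 12 in replicate 1 at day 14, and 5, 7 and 27 at day 21. In whole lung, fewer type 2 cells and less surfactant RNA per cell cannot be told apart, and this holds for every value below.

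**Figure D1:**
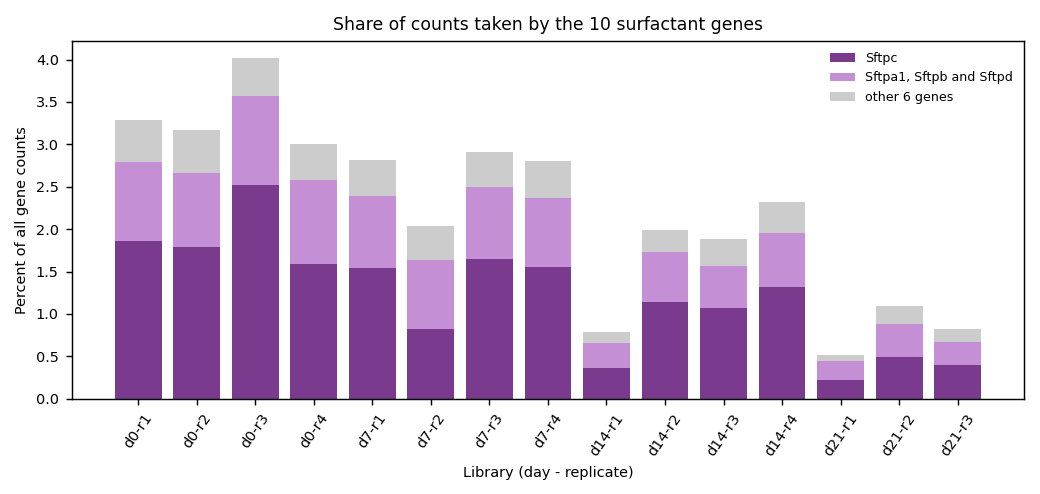
Percent of all gene counts (y axis) taken by Sftpc, by the other 3 surfactant proteins and by the other 6 genes in each of the 15 libraries (x axis, day and replicate). The stacked bars stand between 3.01% and 4.02% at day 0 and at or under 1.09% at day 21, and day 14 replicate 1, at 0.789%, lies below the other day 14 libraries.

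Upstream sequences of 4 members are shown because these genes share a cell type and moved together, and because the lung factor NKX2-1, forkhead factors, C/EBP factors and ETS factors are known regulators of type 2 genes. RefSeq promoters (GRCm38.p6) were found for 7 of the 10 genes, and Sftpc, Sftpd and Napsa had no entry. The 250 bases before each RefSeq start were searched on both strands for CAAGTG (NKX2-1), TGTTTAC (forkhead), TTGCNNAA (C/EBP) and CGGAAG (ETS), which are held by 11.6%, 3.17%, 9.56% and 13.6% of all promoter windows of this length. Sequences run 5′ to 3′ on the gene's strand in lower case, and capitals mark matches.
Sftpa1, chr14:41131538-41131787, plus strand: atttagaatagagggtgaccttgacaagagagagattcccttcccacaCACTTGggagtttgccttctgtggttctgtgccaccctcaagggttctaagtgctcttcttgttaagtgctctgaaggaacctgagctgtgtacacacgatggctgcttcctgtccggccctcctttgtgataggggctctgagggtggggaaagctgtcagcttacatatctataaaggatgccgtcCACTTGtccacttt
Sftpb, chr6:72304360-72304609, plus strand: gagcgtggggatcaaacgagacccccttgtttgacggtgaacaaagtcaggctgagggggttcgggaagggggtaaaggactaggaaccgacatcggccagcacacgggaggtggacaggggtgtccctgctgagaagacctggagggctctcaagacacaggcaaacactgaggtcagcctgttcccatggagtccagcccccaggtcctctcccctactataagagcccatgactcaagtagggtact
Lamp3, chr16:19706366-19706615, minus strand: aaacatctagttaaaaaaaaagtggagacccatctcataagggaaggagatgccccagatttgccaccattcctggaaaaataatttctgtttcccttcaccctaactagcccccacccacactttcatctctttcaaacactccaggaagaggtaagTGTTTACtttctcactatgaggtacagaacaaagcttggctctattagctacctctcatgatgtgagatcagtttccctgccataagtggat
Slc34a2, chr5:53049103-53049352, plus strand: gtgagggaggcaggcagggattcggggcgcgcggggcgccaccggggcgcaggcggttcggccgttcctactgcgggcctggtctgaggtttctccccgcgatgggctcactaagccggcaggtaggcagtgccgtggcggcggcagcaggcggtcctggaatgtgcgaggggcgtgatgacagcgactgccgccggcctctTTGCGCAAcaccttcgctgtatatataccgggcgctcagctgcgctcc
Sftpa1 held the NKX2-1 letters at 202 and 14 bases before its start, both on the minus strand, so that they read CACTTG above. Lamp3 held the forkhead letters 92 bases before its start. Slc34a2 held a C/EBP match 48 bases before its RefSeq start, and it is a palindrome that matches both strands. Sftpb held none of these letter strings in this window. Of the others, Etv5 held the forkhead letters in 1 of its 2 RefSeq promoters, Abca3 and Lpcat1 held none, and no member held the ETS letters. These are matches of letters, not binding sites.

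Sftpc (ENSMUSG00000022097, chr14:70520949-70524081, minus strand, GRCm38) encodes the hydrophobic surfactant protein C and is largely specific to type 2 cells. It stood at 18870, 17860, 25100 and 15730 CPM at day 0 and at 15540, 8190, 16310 and 15710 CPM at day 7. It then stood at 3742, 11820, 10530 and 13030 CPM at day 14 and at 2213, 4906 and 4013 CPM at day 21. Every day 14 and day 21 library was below every day 0 library, which held for 14.4% and 16.0% of all genes tested, while day 7 replicate 3 overlapped day 0. The log2 fold change against day 0 was -0.48 ± 0.35 (SE) at day 7 (adjusted p = 0.341), -0.99 ± 0.36 at day 14 (adjusted p = 0.0429) and -2.39 ± 0.41 at day 21 (adjusted p = 0.000583). The day 14 call of Sftpc was lost when any of 6 of the 8 libraries was left out, and without day 14 replicate 1 the change was -0.74 (adjusted p = 0.0717). The day 21 call held in all 20 alternatives.

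Sftpa1 (ENSMUSG00000021789, chr14:41131782-41136452, plus strand) encodes surfactant protein A, a collectin that binds lipid and microbes. Its level was 4081, 3873, 4363 and 4167 CPM at day 0 and 2516, 2125, 3058 and 2538 CPM at day 7. It dropped to 598, 1879, 1361 and 1766 CPM at day 14 and to 522, 1001 and 686 CPM at day 21. Already at day 7 all 4 libraries lay below all 4 day 0 libraries, as they did for 13.2% of all genes tested. At day 7 the log2 fold change was -0.69 ± 0.28 (SE, adjusted p = 0.0829), which missed the threshold. It passed in DESeq2 (-0.72, adjusted p = 0.0334) and in edgeR on only the 8 libraries of these days (adjusted p = 0.00321), whereas with the mitochondrial share as a covariate it was -0.39 (adjusted p = 0.469). At day 14 it was -1.56 ± 0.29 (adjusted p = 0.000757) and at day 21 -2.48 ± 0.33 (adjusted p = 7.02e-05), the largest fall of the 10 at both days.

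Sftpd (ENSMUSG00000021795, chr14:41172214-41185149, minus strand) encodes the other surfactant collectin, surfactant protein D. It stood at 867, 889, 995 and 931 CPM at day 0 and at 1215, 1102, 1083 and 1039 CPM at day 7, so that all day 7 libraries were above all day 0 libraries, as for 17.6% of all genes tested. It then stood at 485, 1018, 783 and 977 CPM at day 14 and at 310, 552 and 402 CPM at day 21. The day 7 difference of 0.27 ± 0.20 on the log2 scale was not called (adjusted p = 0.352), nor was that at day 14, -0.17 ± 0.20 (adjusted p = 0.542). At day 21 it fell by 1.13 ± 0.23 on the log2 scale (adjusted p = 0.00177).

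Sftpb (ENSMUSG00000056370, chr6:72304610-72314371, plus strand) encodes surfactant protein B, which is needed for lamellar body formation and for breathing at birth. Its level was 4426, 3909, 5046 and 4601 CPM at day 0 and 4759, 4857, 4231 and 4771 CPM at day 7. The levels were 1933, 3103, 2814 and 3565 CPM at day 14 and 1298, 2411 and 1558 CPM at day 21. Day 0 and day 7 overlapped, and all later libraries lay below day 0. The log2 fold change was 0.05 ± 0.21 (SE) at day 7 (adjusted p = 0.882), -0.66 ± 0.21 at day 14 (adjusted p = 0.0236) and -1.36 ± 0.23 at day 21 (adjusted p = 0.000517). The day 14 call was lost without day 14 replicate 1 (-0.53, adjusted p = 0.0559) and without day 0 replicate 3 (-0.62, adjusted p = 0.0506).

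Sftpb and Sftpd are also expressed by airway secretory cells. Of 7 club and airway secretory genes, 2 were lower at day 7, 5 at day 14 and 3 at day 21, and none was called higher. Their summed level ranged from 27220 to 33910 CPM at day 0, from 9499 to 12680 CPM at day 7, from 2976 to 7210 CPM at day 14 and from 1471 to 7575 CPM at day 21. Scgb1a1, the secretoglobin that marks club cells, went from 27890 ± 3098 CPM at day 0 to 3090 ± 1753 CPM at day 21, a log2 fold change of -3.17 ± 0.40 (adjusted p = 4.78e-05). Scgb1a1 was already called lower at day 7 (-1.59, adjusted p = 0.00356). The part of these cells in the levels of Sftpb and Sftpd was not tested.

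**Figure D2:**
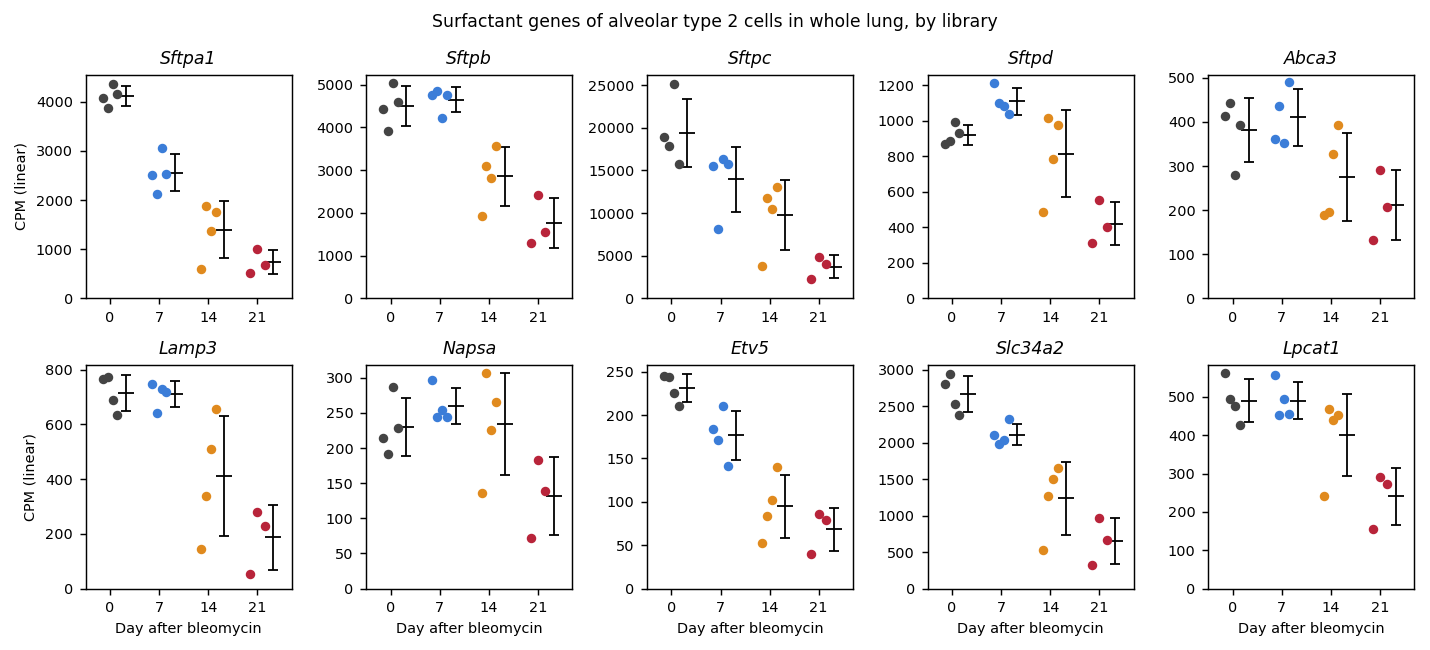
CPM on linear axes that start at 0 (y axis) of the 10 surfactant genes by day after bleomycin (x axis), with a point for each library and a bar for the mean ± SD (n = 4, 4, 4 and 3). Sftpa1, Slc34a2 and Etv5 were below day 0 in every library from day 7 onward, with a small gap at day 7 for Slc34a2 and Etv5. Sftpb, Abca3, Lamp3, Napsa and Lpcat1 overlapped day 0 at day 7 and had their lowest means at day 21.

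Lamp3, Abca3 and Lpcat1, which serve the lamellar body and its lipid, were called lower at day 21 and not before. Lamp3 (ENSMUSG00000041247, chr16:19653378-19706375, minus strand) encodes a lysosome-associated membrane protein of the lamellar body. It stood at 767, 772, 689 and 633 CPM at day 0, at 749, 643, 730 and 719 CPM at day 7, at 146, 337, 509 and 655 CPM at day 14 and at 54.1, 280 and 228 CPM at day 21. The day 14 libraries spread from far below day 0 to within it, and their difference of -0.80 ± 0.41 on the log2 scale was not called (adjusted p = 0.154). At day 21 all 3 libraries were below all of day 0, with a log2 fold change of -1.93 ± 0.47 (adjusted p = 0.00636).

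Lamp3 is also made by mature dendritic cells. Of 6 genes of those cells, 5 were tested, and 4 were called higher at day 7 and 3 at each of days 14 and 21. Their summed level was 64.9 to 75.2 CPM at day 0, 142 to 209 CPM at day 7, 150 to 192 CPM at day 14 and 126 to 229 CPM at day 21. Il4i1 was not tested and had at most 5 counts in a library. The part of these cells in the level of Lamp3 was not tested.

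Abca3 (ENSMUSG00000024130, chr17:24351950-24410201, plus strand) encodes the transporter that moves phospholipid into lamellar bodies. Its range was 279 to 443 CPM at day 0, 353 to 490 CPM at day 7, 189 to 392 CPM at day 14 and 133 to 292 CPM at day 21. It was the only member whose day 21 libraries overlapped day 0, since day 21 replicate 2 (292 CPM) exceeded day 0 replicate 3 (279 CPM). The log2 fold change was 0.10 ± 0.26 at day 7 (adjusted p = 0.803), -0.47 ± 0.26 at day 14 (adjusted p = 0.175) and -0.86 ± 0.28 at day 21 (adjusted p = 0.0315). The day 21 call was lost when any of 5 libraries was left out, among them day 0 replicate 4 (-0.87, adjusted p = 0.0533). Abca3 shares 9.75% of its exon bases with D330041H03Rik on the other strand, which had 24 to 87 counts.

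Lpcat1 (ENSMUSG00000021608, chr13:73467197-73516422, plus strand) encodes the acyltransferase that remodels phosphatidylcholine to the saturated form of surfactant. It ranged from 426 to 564 CPM at day 0 and from 454 to 557 CPM at day 7. At day 14 replicate 1 had 242 CPM and the other 3 libraries 439 to 470 CPM, and at day 21 the range was 156 to 292 CPM. Its log2 fold change was -0.00 ± 0.21 at day 7 (adjusted p = 0.997), -0.29 ± 0.21 at day 14 (adjusted p = 0.305) and -1.03 ± 0.23 at day 21 (adjusted p = 0.00368). Thus Lpcat1 was called at day 21 only among the contrasts with day 0.

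Napsa (ENSMUSG00000002204, chr7:44572380-44586862, plus strand) encodes napsin A, the aspartic protease that processes the precursors of surfactant proteins B and C. Its level was 214, 191, 287 and 229 CPM at day 0, 297, 244, 254 and 244 CPM at day 7, 137, 307, 226 and 266 CPM at day 14 and 72.3, 183 and 139 CPM at day 21. Days 0, 7 and 14 overlapped and all day 21 libraries were below day 0. The log2 fold change was 0.18 ± 0.25 at day 7 (adjusted p = 0.647), 0.02 ± 0.25 at day 14 (adjusted p = 0.956) and -0.81 ± 0.28 at day 21 (adjusted p = 0.0387). The last was the smallest called fall of the 10. It was lost when any of 4 libraries was left out, among them day 0 replicate 4 (-0.84, adjusted p = 0.0582) and day 21 replicate 1 (-0.55, adjusted p = 0.128). Napsa shares 18.9% of its exon bases with the antisense gene Gm15396, which had at most 2 counts.

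Slc34a2 (ENSMUSG00000029188, chr5:53038081-53071664, plus strand) encodes the sodium-dependent phosphate cotransporter that takes up phosphate freed in surfactant turnover. It stood at 2808, 2938, 2535 and 2384 CPM at day 0, at 2106, 1976, 2041 and 2319 CPM at day 7, at 531, 1269, 1498 and 1659 CPM at day 14 and at 328, 964 and 662 CPM at day 21. As with Sftpa1, all day 7 libraries were below all of day 0, but by a small gap, and the log2 difference of -0.34 ± 0.31 was not called (adjusted p = 0.452). It fell by 1.11 ± 0.31 on the log2 scale at day 14 (adjusted p = 0.0134) and by 2.03 ± 0.36 at day 21 (adjusted p = 0.000649).

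Etv5 (ENSMUSG00000013089, chr16:22381309-22439719, minus strand) encodes the ETS transcription factor that acts downstream of FGF and ERK signalling and maintains type 2 cells. Its level was 245, 244, 226 and 211 CPM at day 0, 184, 171, 210.0 and 141 CPM at day 7, 53.0, 83.6, 102 and 140.1 CPM at day 14 and 40.1, 85.5 and 79.2 CPM at day 21. Each day 7 library was below each day 0 library, and the highest day 14 library lay just under the lowest of day 7. The log2 fold change was -0.39 ± 0.25 at day 7 (adjusted p = 0.273), -1.29 ± 0.26 at day 14 (adjusted p = 0.00144) and -1.76 ± 0.29 at day 21 (adjusted p = 0.000386). The calls at days 14 and 21 held in all alternatives.

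**Figure D3:**
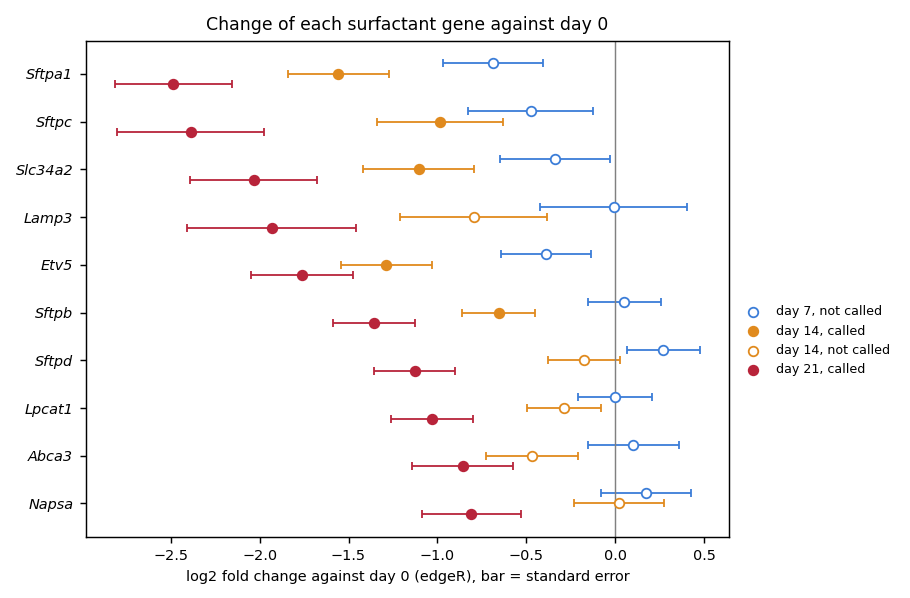
Log2 fold change against day 0 (x axis, edgeR) of the 10 surfactant genes (y axis, ordered by day 21), with the standard error as a bar, filled points for called changes and open points for others. All 10 genes are filled at day 21, from -2.48 for Sftpa1 to -0.81 for Napsa, 5 are filled at day 14 and none at day 7.

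Between the later days, the fall was called only from day 7 to day 21 for most members. From day 7 to day 14, where 3.23% of all genes tested were called lower, Etv5 alone passed, at -0.90 ± 0.26 on the log2 scale (adjusted p = 0.0446), and 7 of 8 fits that left out a library lost that call. Adding the mitochondrial share to the model also ended it (-0.98, adjusted p = 0.201). DESeq2 called Sftpa1 (-0.86, adjusted p = 0.0195) and Sftpb (-0.69, adjusted p = 0.00734) as well, and edgeR placed them just outside the threshold, at an adjusted p of 0.0708 for Sftpa1 and of 0.05 for Sftpb. From day 7 to day 21, where 4.34% of all genes were called lower, all 10 passed, with log2 fold changes from -1.92 (Lamp3) to -0.96 (Abca3) and adjusted p-values from 0.00280 to 0.0384. With the mitochondrial share as a covariate 8 of these calls held, and those of Abca3 (adjusted p = 0.131) and Lamp3 (adjusted p = 0.0510) were lost. When a library was left out, 8 to 10 held, Abca3 and Napsa being the ones lost. From day 14 to day 21 edgeR called 0 of the 10, and 0% of all genes were called lower. The 10 log2 fold changes ran from -1.40 to -0.39, and the adjusted p-values were 0.266 to 0.675. An unadjusted p under 0.05 was reached by 8 of the 10, all lower, and by 4.74% of all genes tested in that direction (9.82% in either). DESeq2 called 2 of them, Sftpc (-1.40, adjusted p = 0.0220) and Sftpd (-0.96, adjusted p = 0.0119). Without day 14 replicate 1, edgeR called 4 lower from day 14 to day 21, Sftpa1, Sftpc, Sftpd and Lpcat1.

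The order of the levels per kilobase of exon changed little at its top. At day 0 Sftpc stood at 18750 CPM per kilobase, Sftpb at 2284, Sftpa1 at 1441, Slc34a2 at 532, Sftpd at 381 and Lamp3 at 213, and no neighbours in this order overlapped. Lpcat1 (106 CPM per kilobase) and Napsa (86.5) overlapped, and Etv5 (56.4) and Abca3 (40.8) did not. At day 21 Sftpc at 3588 and Sftpb at 892 CPM per kilobase still stood clear of the rest, while from Sftpa1 (258) down to Etv5 (16.6) each gene overlapped the next. Sftpc gave 57.2% ± 4.06 (SD, n = 4) of the counts of the 10 genes at day 0 and 45.5% ± 2.83 (n = 3) at day 21.

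The falls differed in size among the 10 genes, although no single ratio passed a corrected test. Each gene was compared within a library with the mean log2 CPM of the other 9, which removes any change they share. At day 21 Sftpa1 (-0.97), Sftpc (-0.86), Lamp3 (-0.64) and Slc34a2 (-0.55) lay lower relative to the others than at day 0, and Napsa (0.86), Abca3 (0.84), Lpcat1 (0.66) and Sftpd (0.55) lay higher. Without day 21 replicate 1 the value of Lamp3 was -0.19. For these 8 genes the day 21 libraries did not overlap day 0, and each had an exact two-sided permutation p of 0.0571, the smallest that 3 against 4 libraries allow. Set against the mean of the 10 members, 0.579% of all genes tested lay below day 0 without overlap and 84.1% above it, since the reference itself fell. At day 14 Sftpa1 (-0.96), Etv5 (-0.61) and Slc34a2 (-0.45) were lower and Napsa (0.88), Sftpd (0.65) and Lpcat1 (0.54) higher without overlap, each at an exact permutation p of 0.0286, the smallest for 4 against 4, where 1.32% of all genes lay below and 51.3% above. At day 7 this held for Sftpa1 (-0.63) and Sftpd (0.45), at the same p, beside 7.72% below and 25.5% above among all genes. Across these 30 comparisons none passed 0.05 after Benjamini-Hochberg adjustment, and at day 21 none could, since the smallest unadjusted p there is 0.0571. Each gene was set against the other 9, so that some had to lie lower and others higher.

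Levels of the 10 genes were correlated over the 15 libraries, less closely for the median pair once day means were removed. Over the 45 pairs of members, the Pearson correlation of log2 CPM across 15 libraries had a median of 0.904 and ran from 0.654 (Abca3 and Napsa) to 0.970 (Lamp3 and Slc34a2). With the day means removed, the median was 0.835 and the range was 0.410 (Abca3 and Napsa) to 0.962 (Lamp3 and Slc34a2). These points share libraries and day groups, so the values are descriptions. Day 14 replicate 1 and day 21 replicate 1 were the lowest of their days for all 10 genes, and their part in these correlations was not tested. Of 12234 genes with a mean of at least 5 CPM, the 6 outside the list most like the mean of the members were Irx1 (0.974), Lgi3 (0.972), Gstt1 (0.972), Tmem50b (0.971), Dram1 (0.971) and Mlc1 (0.970). For Sftpc alone they were Lgi3 (0.974), Dram1 (0.970) and Irx5 (0.962). Irx1, a homeobox gene, went from 160.4 ± 30.8 CPM at day 0 to 49.3 ± 24.0 CPM at day 21, and Lgi3 from 280 ± 11.1 to 46.2 ± 24.3 CPM.

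The median surfactant gene also fell relative to general epithelial genes, although no single ratio passed a corrected test. Of 9 pan-epithelial genes, 1 was higher at day 7, 2 were lower at day 14 and 3 at day 21, with median log2 fold changes of 0.21, -0.11 and -0.56. Their summed level ranged from 1292 to 1924 CPM at day 0 and from 946 to 1751 CPM at day 21. The called genes with the largest changes were Grhl2 (-1.21 at day 21), an epithelial transcription factor, and Cldn3 (-1.09 at day 21), a tight junction claudin, and Elf3 (0.61 at day 7). Relative to the mean log2 CPM of these 9 genes in the same library, the median difference of the 10 surfactant genes from day 0 was -0.24 at day 7, -0.69 at day 14 and -1.06 at day 21. At day 21 all 10 differences were below 0, from -1.98 (Sftpa1) to -0.34 (Napsa), although without day 21 replicate 1 Napsa was at 0.05, Abca3 at -0.05, Lpcat1 at -0.22 in place of -0.52, Sftpd at -0.40 in place of -0.61 and Lamp3 at -0.93 in place of -1.68. At day 21, 7 genes did not overlap day 0, each with an exact permutation p of 0.0571, where 4.17% of all genes tested lay below day 0 without overlap on the same scale. At day 14, 5 genes lay below day 0 without overlap, beside 7.73% of all genes, and Napsa was at 0.12. At day 7 Sftpa1 (-0.94), Sftpc (-0.75), Etv5 (-0.64), Slc34a2 (-0.57), Lamp3 (-0.25) and Lpcat1 (-0.24) lay below day 0 without overlap (exact permutation p = 0.0286 each), as did 23.9% of all genes. None of these 30 comparisons passed 0.05 after Benjamini-Hochberg adjustment, and at day 21 none could, since the smallest unadjusted p there is 0.0571.

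Most other markers of type 2 cells were also lower at day 21. Of 12 such genes, 10 were lower at day 21 and 5 at day 14, and at day 7 none was called lower, with medians of -1.53, -0.77 and -0.40 on the log2 scale. The largest called falls at day 21 were those of Acoxl (-3.99 ± 0.74, adjusted p = 0.000977), an acyl-CoA oxidase-like gene, Lyz1 (-3.09 ± 0.60, adjusted p = 0.00132), a lysozyme, and Hc (-3.02 ± 0.71, adjusted p = 0.00504), complement C5. Lyz1 has a near-identical neighbour, Lyz2, and reads that fit both were left out upstream, so its level is uncertain. Ctsh, a cathepsin that takes part in processing surfactant protein B and is also made by macrophages, was called higher at each day, with log2 fold changes of 0.86, 1.47 and 1.37, and was singled out after its values were seen. It stood at 453 ± 63.5 CPM at day 0 and 1172 ± 247 CPM at day 21. Rbpjl missed the threshold at day 21 (-1.29, adjusted p = 0.0693).

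**Figure D4:**
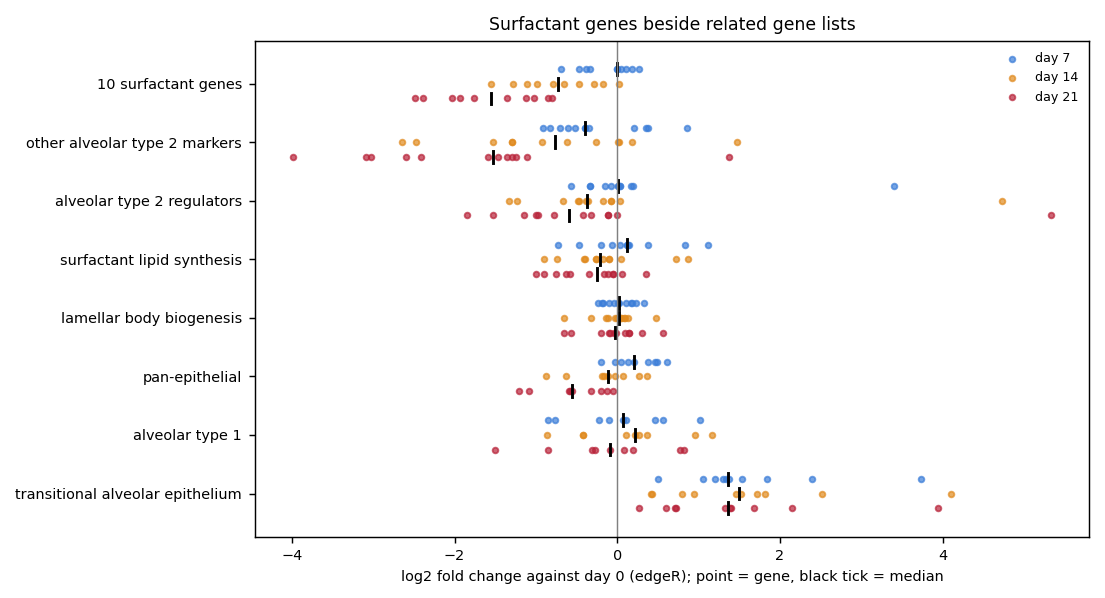
Log2 fold change against day 0 (x axis, edgeR) of each gene in the surfactant list and in 7 other lists (y axis), coloured by day, with a black tick at each median. The surfactant genes and the other type 2 markers shift to medians of -1.56 and -1.53 at day 21, while the lamellar body biogenesis genes stay near 0 and the transitional epithelium genes lie near 1.35 at days 7 and 21.

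Several transcription factors that act on surfactant promoters were lower at day 21. Of 12 regulators, 1 was higher at each day, while 0, 3 and 6 were lower at days 7, 14 and 21. Nkx2-1, the homeobox factor of the lung lineage, stood at 265 ± 51.7 CPM at day 0 and 120 ± 50.1 CPM at day 21, with a log2 fold change of -1.15 ± 0.25 (adjusted p = 0.00302). It was not called at day 14 (-0.47, adjusted p = 0.119). The forkhead gene Foxa1 fell by 1.33 on the log2 scale at day 14 and by 1.52 at day 21, whereas Foxa2 was called at day 21 only (-0.97). Cebpa, a C/EBP factor needed for type 2 maturation, fell by 0.66 at day 14 and by 0.998 at day 21 on the log2 scale, and Tfcp2l1 by 1.24 and 1.84. Other regulators of the list were not called against day 0 at any day. At day 21 these were Cebpd (-0.32), Gata6 (-0.12), Nfib (-0.007), Srebf1 (-0.12) and Srebf2 (-0.42).

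The riser among the regulators was Etv4, an ETS gene of the same subfamily as Etv5. It had 3 to 7 counts per library at day 0 (0.181 to 0.444 CPM) and 3.23, 4.47, 2.36 and 3.09 CPM at day 7. It then stood at 13.7, 12.1, 3.95 and 3.44 CPM at day 14 and at 20.3, 7.52 and 10.0 CPM at day 21. Every later library was above every day 0 library, and the log2 fold changes of 3.40 ± 0.56, 4.73 ± 0.56 and 5.34 ± 0.57 were all called (adjusted p = 0.000722, 1.96e-05 and 1.3e-05). Etv1, of the same subfamily and singled out after its values were seen, was not called at any day, with log2 fold changes of -0.47, -0.58 and -0.32.

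FGF signalling genes, which lie upstream and downstream of Etv5, changed in both directions. Of 10 such genes, 1 was higher and 1 lower at day 7, 3 and 2 at day 14, and 4 and 2 at day 21. Etv4 is in this list too, as the only higher gene at day 7 and among the higher genes at days 14 and 21. Fgfr2, the receptor through which epithelial cells sense FGF, stood at 237, 223, 271 and 245 CPM at day 0 and at 47.7, 77.7 and 60.0 CPM at day 21. It was called lower at day 7 (-0.76 ± 0.17, adjusted p = 0.00602), at day 14 (-1.53 ± 0.18, adjusted p = 1.73e-05) and at day 21 (-1.98 ± 0.20, adjusted p = 8.58e-06). Spry4, a feedback inhibitor, was called higher at day 14 (0.92) and day 21 (0.82).

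**Figure D5:**
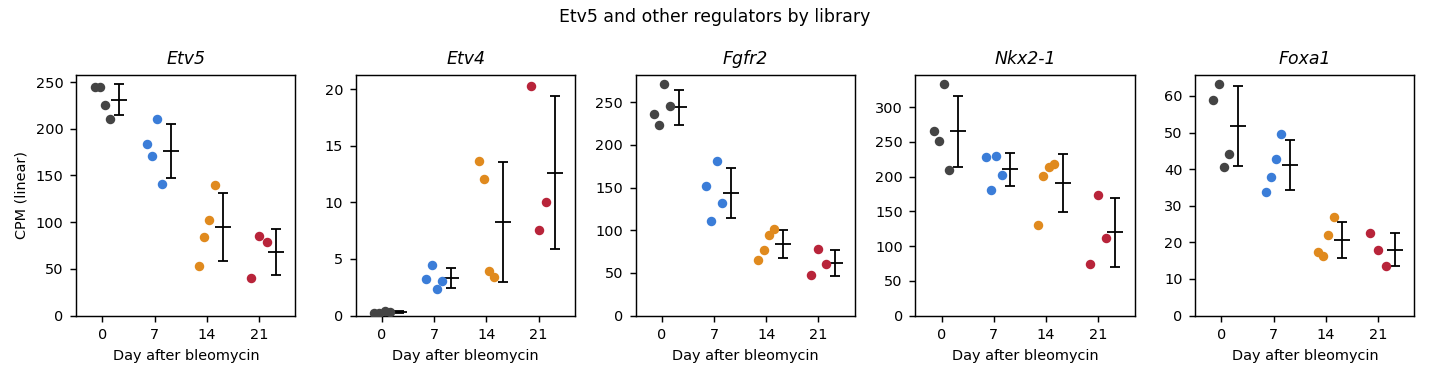
CPM on linear axes that start at 0 (y axis) of Etv5, Etv4, Fgfr2, Nkx2-1 and Foxa1 by day after bleomycin (x axis), a point per library with mean ± SD. Etv5 and Fgfr2 step down from day 7, Nkx2-1 and Foxa1 have their lowest means at day 21, and Etv4 rises from at most 0.444 CPM at day 0 to between 7.52 and 20.3 CPM at day 21.

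The enzymes of surfactant lipid synthesis had small median changes. Of 12 genes, 2 were higher and 1 lower at day 7, 1 and 2 at day 14, and 0 and 5 at day 21, with medians of 0.12, -0.22 and -0.25 on the log2 scale. Scd1, the stearoyl-CoA desaturase, was higher at day 7 (1.12 ± 0.34, adjusted p = 0.0271). Gpam, which starts glycerolipid synthesis, was lower at day 14 (-0.90) and day 21 (-1.01), and Fasn, the fatty acid synthase, at day 21 (-0.91). These enzymes are also expressed by other lung cells.

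General genes of lamellar body and lysosome-related organelle biogenesis gave few calls. Among 12 of them, only Rab27a, a GTPase of regulated exocytosis, was called against day 0, at -0.65 at day 14 and -0.66 at day 21, and the medians were 0.01, 0.02 and -0.03. Of 12 genes of surfactant secretion, uptake and clearance, 2, 4 and 5 were higher and 1, 2 and 1 lower at days 7, 14 and 21. Lpl, lipoprotein lipase, reached 1.83 and P2ry2, the purinergic receptor that triggers surfactant secretion, 1.09 on the log2 scale at day 21. Csf2ra, a chain of the GM-CSF receptor with which macrophages clear surfactant, was called higher at day 14 (1.07) and day 21 (0.76).

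Markers of the other alveolar epithelial states changed in both directions or were higher. Of 9 alveolar type 1 genes, 2 were higher and 2 lower at day 21, with a median of -0.09 and summed levels of 5905 to 8448 CPM at day 0 and 3652 to 9011 CPM at day 21. The called genes with the largest changes were Rtkn2 (-1.51 at day 21), Pdpn (1.16 at day 14), the podoplanin gene, and Spock2 (0.96 at day 14). Of 10 genes of the transitional alveolar epithelium, the Krt8-positive state between type 2 and type 1 cells, 9 were higher at day 7, 8 at day 14 and 7 at day 21. Cldn4, a claudin, reached 3.74, 4.11 and 3.94 on the log2 scale, Sfn 2.40, 2.51 and 2.14, and Cdkn1a, the cell cycle inhibitor p21, 1.84, 1.52 and 1.39. Among all genes tested, 8.78%, 12.0% and 12.4% were called higher at days 7, 14 and 21. At day 7 edgeR called 9 transitional genes and no surfactant gene, while DESeq2 called Sftpa1 lower (-0.715, adjusted p = 0.0334). Which cells carry the changes of the transitional genes was not tested.

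Markers of other cells in the lung moved in the same libraries. Of 5 fibroblast genes, 3 were higher at each day, and their summed level went from 1304 to 1985 CPM at day 0 to 4814 to 9427 CPM at day 21. Of 6 leukocyte genes, 1, 3 and 3 were higher, with sums of 702 to 1014 CPM at day 0 and 707 to 1354 CPM at day 21. Of 5 endothelial genes, 1, 2 and 1 were lower, and of 8 alveolar macrophage genes 4, 3 and 4 were lower and 0, 1 and 0 higher. The summed level of the alveolar macrophage genes was nevertheless higher, at 763 to 1098 CPM at day 0 and 1165 to 2416 CPM at day 21. The part of all these cells in the CPM of the surfactant genes was not tested. With the mitochondrial share as a covariate, 5 surfactant genes were called at day 14 and 10 at day 21. Among libraries with a share over 3.5%, 3 were called at day 14. All 10 were called at day 21, but the 1 library of that day that remained was replicate 1, the lowest of its day for all 10 genes, so nothing is read from that count.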

How the data were processed

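RNA-seq libraries were made from polyadenylated RNA of whole mouse lungs with a NEBNext Ultra kit. After TrimGalore trimming and HISAT2 alignment to mm10 (GRCm38), the authors dropped multi-mapped reads, counted with HTSeq and deposited the raw counts of each Ensembl gene without normalization. The submitters' processing notes name HISAT2 2.1.0, HTSeq 0.6.0 and DESeq2 1.40.2. The strand setting and annotation release are not given in the sources used here, so overlapping antisense genes could not be told apart. Day and replicate number were taken from the sample titles, and the series description gives 3 replicates for every day. Symbols and coordinates came from GENCODE M21, which matched 33267 of 33340 identifiers.

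Counts were tested with edgeR 4.0.16 in R 4.3.3 (filterByExpr, TMM, glmQLFit and glmQLFTest) in 1 fit of all 15 libraries with day as the only term. The common biological coefficient of variation was 22.8%, and the fit was tested on simulated data. Log2 CPM for permutation tests, ratios and correlations used a prior count of 2. Alternatives were DESeq2 1.42.0, voom in limma 3.58.1, other scalings, filters and thresholds, the 2 groups alone, a replicate block, the mitochondrial share of counts as a covariate or as sets under 2.5% and over 3.5%, and leaving out each library. Deviations of libraries with the same replicate number correlated between -0.244 and 0.397 over 21 pairs, so the numbers were not taken to pair samples. The members and gene lists were chosen with earlier results of these data known. All 10 members are named. From each list at most the 3 called genes with the largest changes against day 0 are named, besides regulators of known role, and exceptions are stated. For likeness, the 6 genes closest to the mean of the members and the 3 closest to Sftpc are named.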

Additional observations from a re-analysis of the deposited data

Results flagged for a closer look

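A library was marked where its gap to the nearest other library of its day exceeded Dixon's critical value, which chance does in about 5% of groups. Of 30 groups of 4 libraries, 3 were marked. Sftpc in day 7 replicate 2 stood at 8190 CPM, while the other day 7 libraries had 15540 to 16310 CPM. Sftpb in day 7 replicate 3 stood at 4231 CPM, against 4759 to 4857 CPM. Lpcat1 in day 14 replicate 1 stood at 241.6 CPM, against 439 to 470 CPM, and that library was the lowest of its day for all 10 genes.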

How the results depend on the processing

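For day 21 against day 0, the number of calls stayed between 7 (glmTreat) and 10, and between 8 and 10 when a library was left out, and Abca3 and Napsa were the genes most often lost. For day 7 against day 0, DESeq2, the 2 groups alone and the libraries with a mitochondrial share under 2.5% each called 1 gene, Sftpa1, in place of 0. For day 14 against day 0, 5 calls became 2 with glmTreat, 3 with a share over 3.5%, 9 with a share under 2.5% (day 14 replicate 1 alone) and 3 to 5 when a library was left out, with 3 without day 0 replicate 3 or day 14 replicate 1. For day 14 against day 7, 1 call became 3 with DESeq2 or no filter, 2 with limma voom or total count scaling, 0 with glmTreat, the mitochondrial covariate or the 2 groups alone, 10 with a share under 2.5% (day 14 replicate 1 alone) and 0 to 2 when a library was left out. For day 21 against day 7, 10 calls became 3 with glmTreat, 8 with the mitochondrial covariate and 8 to 10 when a library was left out, Abca3 being lost in 6 and Napsa in 5 of those 7 fits. For day 21 against day 14, 0 calls became 2 with DESeq2, 7 with a share over 3.5% (day 21 replicate 1 alone) and 0 to 4 when a library was left out, the 4 without day 14 replicate 1. A lone library is assumed to vary like the others, and as both of these were the lowest of their day for all 10 genes, nothing is read from those counts. No day 21 library had a share under 2.5% and no day 7 library one over 3.5%, so those fits were not run. The replicate block called 3 genes for day 14 against day 7 and changed no other count of calls.

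Changes of sign were seen in differences that were not called. At day 7 they were Abca3 with a share under 2.5% (-0.077), and with the mitochondrial covariate Lamp3 (0.096) and Lpcat1 (0.041). With the replicate block Lpcat1 was 0.001. When a library was left out, Sftpb ran from -0.037 to 0.093, Abca3 from -0.045 to 0.168, Lamp3 from -0.085 to 0.036 and Lpcat1 from -0.089 to 0.044. Napsa at day 14 was -0.022 with limma voom, -0.002 with no filter, -0.007 at a mean of at least 1 CPM, -0.048 with the mitochondrial covariate, -0.023 with the replicate block, -0.003 with the 2 groups alone, -0.565 (adjusted p = 0.00304 in edgeR, under the fold threshold) with a share under 2.5% and -0.157 to 0.188 when a library was left out. For day 14 against day 7 it ran from -0.308 to 0.037 when a library was left out. Relative to pan-epithelial genes, when a library was left out, Sftpd ran from -0.033 to 0.112 at day 7 and from -0.165 to 0.111 at day 14, Napsa from -0.184 to 0.103 at day 7, from -0.008 to 0.325 at day 14 and from -0.553 to 0.053 at day 21, and Lpcat1 from -0.308 to 0.005 at day 14. The causes were not tested. The least counted member, Etv5, had at least 648 counts in every library.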
